A study of Mus musculus with 6 samples.

Results

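Mature neutrophils of mouse lung were examined in single-cell RNA libraries of leukocytes, taken from perfused, digested lungs by magnetic beads against CD45. The comparison is of 3 libraries of lung into which acute myeloid leukaemia (AML), a malignancy of immature myeloid cells, had spread with 3 libraries of normal lung. The labels give neither the leukaemia model nor the strain, age or sex of the mice, and they do not say which cells are leukaemic. Whether each replicate is its own animal is not stated either, so p-values here reflect the scatter of these libraries alone, which may be technical. A barcode counted as a mature neutrophil if it had at least 500 unique molecular identifiers (UMIs), at least 200 genes and under 10% mitochondrial UMIs, and if 3 or more of Retnlg, Cxcr2, Il1r2, Hdc, G0s2, Csf3r and Acod1 were detected in it. It could hold at most 4 UMIs of the granule genes Ngp, Camp and Ltf, at most 1 UMI of Cd79a, Cd3e, Ncr1 and Plet1, and at most 1 UMI of Vcan, F13a1 and Ccr2. The rule took 8973 of 71634 kept barcodes, 7340 of them from AML lung and 1633 from normal lung. Values below are listed in the order of replicates 1, 2 and 3, and CPM are UMIs of a gene per 1000000 UMIs of the summed cells of a library.

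Neutrophils are short-lived phagocytes that leave the bone marrow as nearly finished cells. The lung holds a large marginated pool of them in its capillaries. CXCR4, the receptor of CXCL12, retains neutrophils in the marrow and rises on ageing circulating cells, whereas CXCR2 serves release from it. Type I interferons switch on antiviral genes such as Ifit3 and Zbp1, and NF-kB drives inflammatory and survival genes such as Traf1, Sod2 and the Bcl2a1 family.

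The depth behind the cells was uneven. The 6 libraries held 43913245 to 66513826 UMIs, yet the median neutrophil by the rule had 5391, 2294 and 1084 UMIs in the AML libraries, against 5557, 3736 and 2099.5 UMIs in those of normal lung. AML lung replicate 3 was the shallowest and gave 6030 of the 8973 cells. Barcode sequences shared between pairs of libraries numbered 2 to 118, at most 1.13% of the smaller library.

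The cells were checked against neutrophil markers that the rule did not use. S100a8, the calprotectin subunit that fills mature neutrophils, had 18326, 22088 and 11555 CPM in the AML libraries, against 25815, 24689 and 18888 CPM in those of normal lung. In B cells of the same libraries, which do not make it, S100a8 had 141, 451 and 1737 CPM in the AML libraries, against 146, 57.7 and 369 CPM in those of normal lung, far below the neutrophils. Cells with 2 or more UMIs summed over the monocyte and macrophage genes Ace, Treml4, Cd300e, Adgre4, C1qa, C1qb and Csf1r made up 41.6%, 24.9% and 34.6% in the AML libraries, against 19.4%, 17.97% and 12.9% in those of normal lung. The groups did not overlap in this measure. Markers of nonclassical monocytes, the patrolling monocytes of the vessel wall, summed over 8 genes, reached 3200.4, 1807 and 1893 CPM in the AML libraries, against 809, 807 and 662 CPM in those of normal lung. Every AML library was above every normal one, and the part of this RNA in the results below was not tested apart from the restriction described next.

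The border of the rule held many such cells. Barcodes with exactly 3 of the 7 genes were 20.7%, 15.1% and 31.1% in the AML libraries, against 3.65%, 4.33% and 13.4% in those of normal lung. Just inside the border, in AML lung replicate 1, the 83 cells with 3 genes had 167 CPM of S100a8 and 814 CPM of Csf1r, the receptor of the macrophage growth factor. Just outside it, the 421 cells with 2 genes had 27.1 CPM of S100a8 and 786 CPM of Csf1r in the same library. In AML lung replicate 3, the 1873 cells inside the border had 6810.4 CPM of S100a8 and 321 CPM of Csf1r. Those outside had 3430.1 CPM of S100a8 and 382 CPM of Csf1r. Cells inside the border also held Csf1r in normal lung, with 798, 642 and 256 CPM, from 19, 20 and 87 cells. The granule limit also set aside more cells in AML lung: 105, 125 and 318 barcodes in the AML libraries, against 1, 3 and 5 barcodes in those of normal lung. Late precursors with granule RNA are not described here.

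Because of this mixture a narrower set was drawn after the values were seen, called marker-restricted neutrophils here. These cells had 2 or more of Retnlg, Cxcr2, Il1r2 and Hdc, S100a8 and S100a9 at 1% or more of their UMIs, and at most 1 UMI summed over the 7 monocyte and macrophage genes above. They numbered 214, 600 and 2950 cells in the AML libraries, against 381, 340 and 456 cells in those of normal lung. As a share of the neutrophils by the rule that was 53.4%, 66.01% and 48.9% in the AML libraries, against 73.1%, 73.6% and 70.2% in those of normal lung. In the restricted cells the nonclassical monocyte markers, 4 of which the restriction itself limits, summed to 124, 167 and 724 CPM in the AML libraries, against 102, 85.8 and 120 CPM in those of normal lung. AML lung replicate 3 stayed apart there, and most tests of named genes in the restricted cells are therefore given with and without it. The summary counts of gene lists in the restricted cells include it unless stated otherwise.

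**Figure D1:**
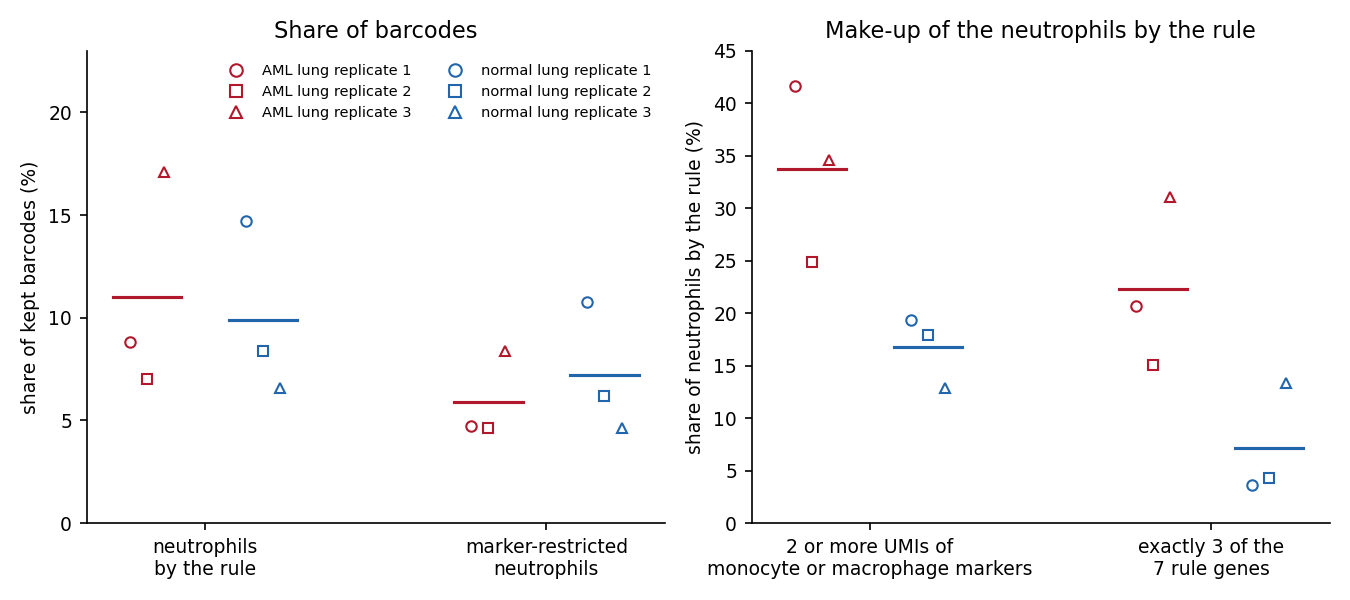
Left, the share of kept barcodes that were neutrophils by the rule or marker-restricted neutrophils, in percent. Right, the share of the neutrophils by the rule that had 2 or more UMIs of monocyte or macrophage markers, or exactly 3 of the 7 rule genes. Points are libraries (red, AML lung, and blue, normal lung) and bars are means. AML libraries lay above all normal libraries in both measures on the right, and the groups overlapped on the left.

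Neutrophils were not detectably more or less frequent in AML lung. Their share of kept barcodes was 8.84%, 7.01% and 17.1% in the AML libraries, against 14.7%, 8.39% and 6.60% in those of normal lung. The mean was 10.99% ± 5.39 over the AML libraries, and 9.90% ± 4.27 over those of normal lung (SD, n = 3 each), a difference of 1.08 percentage points with an exact two-sided permutation p of 0.6, where 20 arrangements allow no p under 0.1. The difference changed sign for the restricted cells, whose share was 4.72%, 4.62% and 8.37% in the AML libraries, against 10.8%, 6.17% and 4.63% in those of normal lung (difference -1.29 points, exact p = 0.6). AML lung replicate 3 was above the other AML libraries in both sets.

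The genes that chose the cells are described by their levels, with no test. The choice of cells depends on them, so overlap or its lack between the groups is description and not a result. Il1r2, the decoy receptor of interleukin 1, had, in the neutrophils by the rule, 3164, 3235 and 2711 CPM in the AML libraries, against 6819.9, 6728 and 6539.6 CPM in those of normal lung. Within the restricted cells it had 6315, 4763 and 3779 CPM in the AML libraries, against 7689, 7964 and 7769 CPM in those of normal lung, and the AML libraries stayed below the normal ones. Csf3r, the receptor of G-CSF, had, in the restricted cells, 2434, 2017 and 1224 CPM in the AML libraries, against 3277, 2750.4 and 2996 CPM in those of normal lung. Il1r2 and Csf3r were lower in every AML library here, but both genes helped choose the cells, so this is not read as a change. Retnlg, a resistin-like secreted protein of mouse neutrophils, had, by the rule, 2816, 5610 and 2714 CPM in the AML libraries, against 2937, 3194 and 2544 CPM in those of normal lung, with overlap. In the restricted cells, which Retnlg also helped choose, it had 5603, 9282 and 4414 CPM in the AML libraries, against 3635, 4244 and 3218 CPM in those of normal lung, with the AML libraries higher. Cxcr2 had, in the neutrophils by the rule, 465, 444 and 369.8 CPM in the AML libraries, against 830.4, 670.2 and 812 CPM in those of normal lung, lower in AML lung without overlap, and in the restricted cells 928, 679 and 535 CPM in the AML libraries, against 966, 799 and 987 CPM in those of normal lung, with overlap. G0s2, an inhibitor of the lipase ATGL, had, in the restricted cells, 2776, 2599 and 961 CPM in the AML libraries, against 786, 1174 and 906 CPM in those of normal lung, and the groups overlapped. Ngp, a cathelicidin-like granule protein limited but not removed by the rule, had, in the restricted cells, 65.8, 106 and 134 CPM in the AML libraries, against 7.27, 8.65 and 13.8 CPM in those of normal lung. The rule itself caps this gene per cell. In B cells, which have no such cap, Ngp had 1.03, 20.2 and 276 CPM in the AML libraries, against 0, 0.203 and 49.4 CPM in those of normal lung. In replicate 3 of both groups that was above the restricted neutrophils. The part of carried-over RNA in the Ngp values was not tested.

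The comparison of AML with normal lung over all genes was made on summed counts with edgeR's quasi-likelihood test. Among the neutrophils by the rule 1145 of 9720 tested genes were higher in AML lung (11.8%) and 1051 were lower (10.8%). Leaving out 1 library gave between 504 calls, without normal lung replicate 1, and 1935 calls, without AML lung replicate 3. Without normal lung replicate 2 there were 708, without normal lung replicate 3 there were 1230 and without AML lung replicate 1 there were 1342. Monocyte genes were among these calls: 7 of the 8 nonclassical monocyte markers were higher (Ace, Adgre4, Cd300e, Ear2, Pou2f2, Spn and Treml4), none was lower, and their median log2 change was 1.28 against 0.054 for all genes tested. When cells with 2 or more UMIs of the 7 monocyte and macrophage genes were left out, 1 gene passed, and with 4 or more of the 7 rule genes required, 10 passed.

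In the marker-restricted neutrophils no gene of 6755 passed edgeR's threshold (0%), and 931 had an unadjusted p under 0.05. DESeq2, run on the same sums as an added alternative, called 57 genes higher (0.844%) and 38 lower (0.563%). Without AML lung replicate 3, edgeR called 74 of 6700 genes higher (1.1%) and 21 lower (0.313%). Leaving out AML lung replicate 1 gave 2 calls and leaving out any other library gave 0. Of the 2196 calls made on the neutrophils by the rule, 1641 could be tested in the restricted cells and 1629 of these kept their direction, while their median absolute log2 change was 0.635 against 1.05. With AML lung replicate 3 left out, 1477 of 1637 kept their direction, with a median absolute log2 change of 0.4. The restricted cells are part of the cells that gave the calls, so the shared direction is no independent support. The genes below are read in both sets. A call on the restricted cells names its tool, and it rests on 2 AML libraries where replicate 3 is left out.

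**Figure D2:**
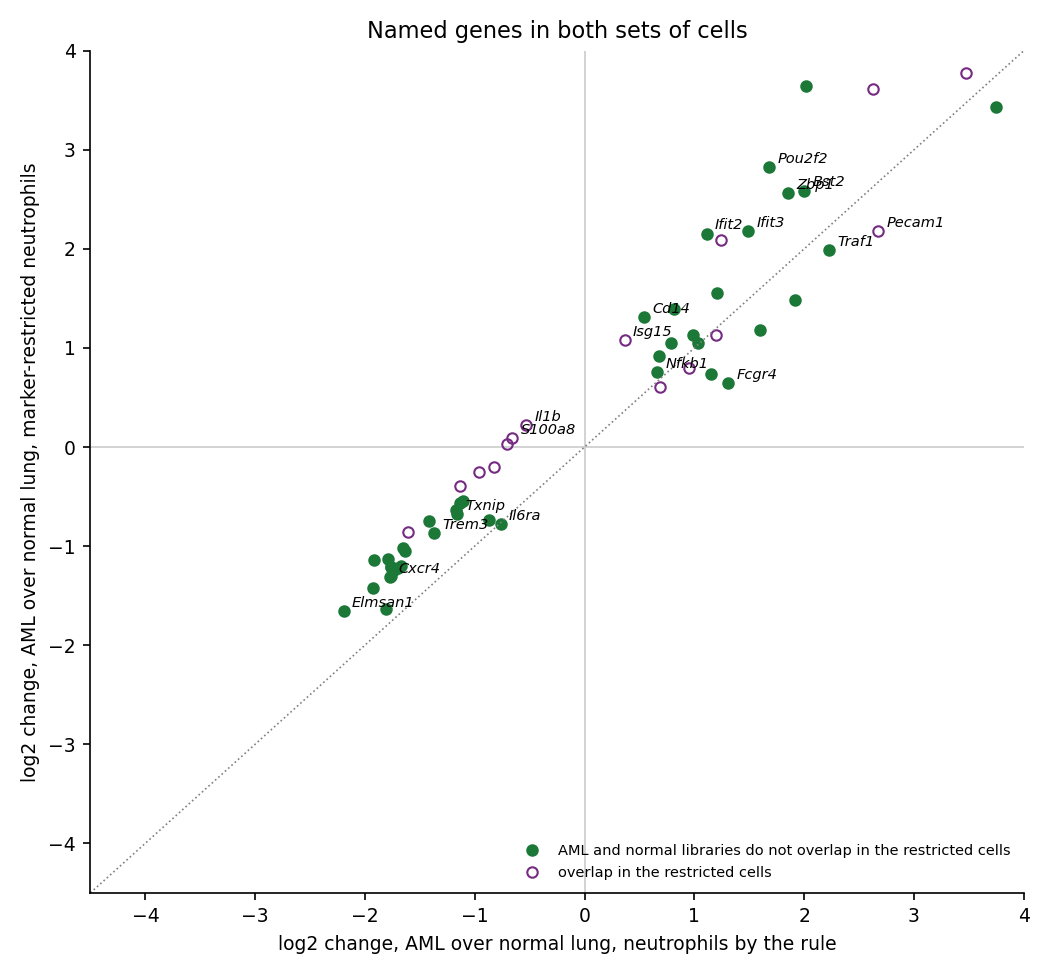
Log2 change, AML over normal lung, of the named genes tested in both sets, with the neutrophils by the rule on the x axis and the marker-restricted neutrophils on the y axis. Filled points have no overlap between AML and normal libraries in the restricted cells, and the dotted line marks equal change. Zbp1, Bst2, Ifit3 and Pou2f2 lay above the line, Cxcr4 and Elmsan1 were lower in AML lung in both sets, and Il1b crossed from below 0 to above 0.

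The median change of type I interferon genes in AML lung was larger in the restricted cells than in the neutrophils by the rule. Of 42 measured genes of this list, 7 rose among the neutrophils by the rule (Bst2, Ifi209, Ifit2, Ifit3, Ifitm3, Phf11d and Zbp1), against 11.8% of all genes, and 1 fell, against 10.8%. The list's median log2 change was 0.17 there and 0.74 over 38 genes in the restricted cells, against 0.054 and 0.058 for all genes tested. Of the 38, 13 had every restricted AML library above every normal one, against 8.53% of all genes, and none the reverse, against 10.8%. With all 6 libraries, edgeR called none of the 38, and DESeq2 called 7 higher, against 0.844% of all genes, and none lower, against 0.563%. Without AML lung replicate 3, edgeR called 13 of 38 higher, against 1.1% of all genes, and none lower, against 0.313%. The 13 were Ifi204, Ifit1, Ifit2, Ifit3, Ifit3b, Ifitm2, Ifitm3, Ifitm6, Isg15, Samhd1, Slfn4, Xaf1 and Zbp1.

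Ifit3, which binds viral RNA in a complex with Ifit1 and lies at chr19:34583531-34588731 (mm10), had, among the neutrophils by the rule, 82.4, 105 and 34.9 CPM in the AML libraries, against 28.4, 33.9 and 15.3 CPM in those of normal lung. The restricted cells had 145, 174 and 43.1 CPM in the AML libraries, against 27.5, 30.4 and 20.7 CPM in those of normal lung. AML replicates 1 and 2 stood several-fold above the normal libraries and replicate 3 just above them. The log2 change was 1.49 by the rule (SE 0.43, edgeR adjusted p = 0.0432), 2.18 in the restricted cells (DESeq2 adjusted p = 0.00387) and 2.60 there without AML lung replicate 3 (edgeR adjusted p = 0.00459).

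Zbp1, the sensor of Z-form nucleic acid that triggers necroptosis, at chr2:173206612-173218923 (mm10), had, in the restricted cells, 118, 147 and 69.1 CPM in the AML libraries, against 16.7, 26.3 and 13.2 CPM in those of normal lung. The groups lay far apart in every library. By the rule it averaged 112 ± 34.3 CPM over the AML libraries, and 30.8 ± 7.35 CPM over those of normal lung (SD, n = 3 each), which is 1.86 on the log2 scale (SE 0.28, edgeR adjusted p = 0.00668). For the restricted cells the change was 2.56 (DESeq2 adjusted p = 5.33e-06), and without AML lung replicate 3 it was 2.83 (edgeR adjusted p = 0.00473).

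Ifitm3, a membrane protein that blocks virus entry, was abundant, with, in the restricted cells, 1033, 1261 and 973 CPM in the AML libraries, against 464, 537 and 575 CPM in those of normal lung. All AML libraries were above all normal ones, and the change of 1.05 passed DESeq2's test (adjusted p = 0.00229; without AML lung replicate 3 1.13, edgeR adjusted p = 0.0233). Ifitm6, its myeloid relative, had here 258, 496 and 186 CPM in the AML libraries, against 102, 112 and 143 CPM in those of normal lung (log2 change 1.40, DESeq2 adjusted p = 0.0284; without AML lung replicate 3 1.68, edgeR adjusted p = 0.0317). Ifit2, another RNA-binding member of the Ifit family, had 48.96, 26.8 and 15.8 CPM in the AML libraries, against 5.89, 4.93 and 9.39 CPM in those of normal lung (log2 change 2.15, DESeq2 adjusted p = 0.0293; without AML lung replicate 3 2.50, edgeR adjusted p = 0.0292). Xaf1, an interferon-induced antagonist of XIAP, had 56.2, 58.04 and 31.3 CPM in the AML libraries, against 13.7, 17.2 and 5.63 CPM in those of normal lung (log2 change 1.95, DESeq2 adjusted p = 0.0129; without AML lung replicate 3 2.19, edgeR adjusted p = 0.0317). For these 4 genes the libraries of the 2 groups did not overlap.

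Isg15, the ubiquitin-like modifier, had, in the restricted cells, 666, 530.3 and 211 CPM in the AML libraries, against 259.5, 219 and 182 CPM in those of normal lung. AML replicates 1 and 2 were high and replicate 3 lay within the normal range, so that the gene passed only without that library (log2 change 1.44, edgeR adjusted p = 0.0209). Bst2, or tetherin, which holds budding virus at the cell surface, went the other way, with 14.6, 16.7 and 80.9 CPM in the AML libraries, against 5.40, 6.57 and 7.51 CPM in those of normal lung. Its high value was that of AML lung replicate 3, and without it the change was 1.29 and did not pass (edgeR adjusted p = 0.159). Among the restricted cells that library had the most marker RNA of nonclassical monocytes, and also of B cells, NK cells, dendritic cells and alveolar macrophages. The part of any of these in the Bst2 value was not tested.

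Of the genes induced chiefly by interferon gamma, 1 of 15 rose by the rule, against 11.8% of all genes, and none fell, with a median log2 change of 0.50. In the restricted cells 5 of 11 had all AML libraries above all normal ones (Gbp5, Gbp7, Ifi47, Igtp and Socs1), against 8.53% of all genes, and none the reverse, with a median of 0.81. Ifi47, a GTPase of this response, had here 37.5, 41.4 and 32.98 CPM in the AML libraries, against 6.87, 13.1 and 12.2 CPM in those of normal lung (log2 change 1.81, DESeq2 adjusted p = 0.0109; without AML lung replicate 3 1.93, edgeR adjusted p = 0.0339). Gbp5, a guanylate-binding protein that promotes inflammasome assembly, had 29.2, 38.5 and 13.2 CPM in the AML libraries, against 8.34, 5.75 and 1.88 CPM in those of normal lung (log2 change 2.22, DESeq2 adjusted p = 0.0462; without AML lung replicate 3 2.55, edgeR adjusted p = 0.0355). Neither passed among the neutrophils by the rule, where the groups of Gbp5 overlapped.

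The promoters of 4 interferon genes that were higher without overlap in the restricted cells are shown, since each holds the letter pattern of the interferon-stimulated response element. Each is the RefSeq window of 300 bases on GRCm38.p6, from 250 bases before the gene's start to 50 bases after it, with each match in capitals. A match is GAAA, any 2 bases and GAAA again, read on either strand, so that it shows as TTTC, any 2 bases and TTTC where it lies on the other strand. Ifit3 lies at chr19:34583279-34583578, plus strand. Ifitm3 lies at chr7:141010695-141010994, minus strand. Bst2 lies at chr8:71537423-71537722, minus strand. Oas1a, which makes the second messenger that activates RNase L, lies at chr5:120907476-120907775, minus strand.
Ifit3: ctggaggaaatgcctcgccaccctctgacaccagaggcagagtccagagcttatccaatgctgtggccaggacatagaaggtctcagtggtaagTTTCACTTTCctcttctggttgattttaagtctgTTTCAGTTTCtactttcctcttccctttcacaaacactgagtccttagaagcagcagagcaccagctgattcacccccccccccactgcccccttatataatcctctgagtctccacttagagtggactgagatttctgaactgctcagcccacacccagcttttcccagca
Ifitm3: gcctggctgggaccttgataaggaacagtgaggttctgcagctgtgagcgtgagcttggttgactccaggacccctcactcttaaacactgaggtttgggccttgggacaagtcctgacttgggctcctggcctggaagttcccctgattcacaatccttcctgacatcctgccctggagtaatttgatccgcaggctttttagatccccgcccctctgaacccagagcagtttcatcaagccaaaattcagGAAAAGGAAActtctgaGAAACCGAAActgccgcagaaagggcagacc
Bst2: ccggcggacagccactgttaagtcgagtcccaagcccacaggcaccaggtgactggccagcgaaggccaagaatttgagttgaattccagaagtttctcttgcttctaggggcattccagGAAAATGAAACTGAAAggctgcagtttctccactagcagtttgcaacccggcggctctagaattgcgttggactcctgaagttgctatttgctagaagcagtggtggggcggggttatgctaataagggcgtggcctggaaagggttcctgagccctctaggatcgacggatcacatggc
Oas1a: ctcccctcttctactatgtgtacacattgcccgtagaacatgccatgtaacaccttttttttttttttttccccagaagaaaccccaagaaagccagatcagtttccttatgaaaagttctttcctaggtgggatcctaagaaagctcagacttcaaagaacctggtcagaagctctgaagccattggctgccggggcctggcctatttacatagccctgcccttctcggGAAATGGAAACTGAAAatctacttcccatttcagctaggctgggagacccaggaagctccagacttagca
Each window held 2 matches, which overlap in Bst2 and Oas1a. The first match began 156 bases before the start of Ifit3, 130 before that of Bst2 and 20 before that of Oas1a, and in Ifitm3 both lay just past the start. The element was present in 18 of the 34 promoters found for the 44 listed interferon genes (52.9%) and in 7 of the 11 found for the 13 genes that stood above in the restricted cells (63.6%). Over the 27025 promoters searched, which leave out 1 chromosome, it was present in 943 (3.49%). A match describes the letters only.

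Interferon genes were also counted per cell, after each cell was thinned to 500 UMIs. Among the neutrophils by the rule, cells with 3 or more genes of the type I list made up 70.8%, 79.3% and 64.8% in the AML libraries, against 60.3%, 58.4% and 55.9% in those of normal lung. Every AML library was above every normal one, with 71.6% ± 7.30 over the AML libraries, and 58.2% ± 2.22 over those of normal lung (SD, n = 3 each), a difference of 13.5 percentage points and an exact permutation p of 0.1, the smallest this design can give. Restricted cells had a share of 79.9%, 84.5% and 68.4% in the AML libraries, against 63.5%, 58.8% and 58.5% in those of normal lung. Without thinning nearly all cells counted as high and the order was lost, with 99.8%, 96.8% and 90.3% in the AML libraries, against 98.3%, 97.6% and 92.9% in those of normal lung.

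**Figure D3:**
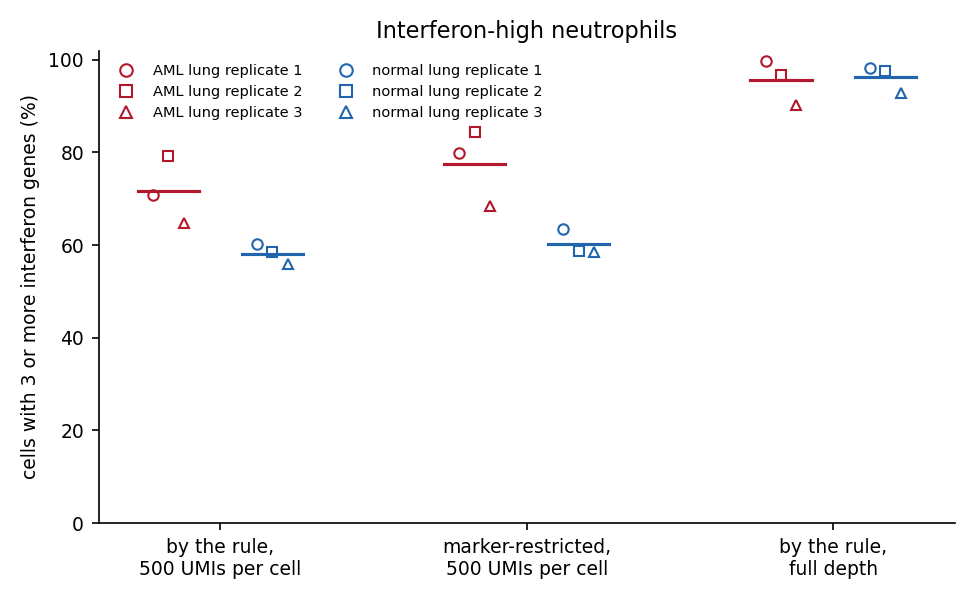
Share of cells with 3 or more detected genes of the type I interferon list, in percent, per library, with bars for means. At 500 UMIs per cell all AML libraries lay above all normal libraries for the neutrophils by the rule and for the restricted cells, and at full depth the groups overlapped between 90.3% and 99.8%.

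Some NF-kB genes were higher as well. Of 21 measured subunits and feedback genes 7 rose by the rule (Nfkb1, Nfkbib, Nfkbie, Sod2, Tnip1, Tnip3 and Traf1), against 11.8% of all genes, and 1 fell (Tnfaip2), against 10.8%. Among restricted cells 8 of 20 stood above in all AML libraries, against 8.53% of all genes, and 1 below, against 10.8%, with a median log2 change of 0.70. Without AML lung replicate 3 the median was 0.67 and edgeR called 3 of 20 higher (Bcl3, Icam1 and Sod2), against 1.1% of all genes. Nfkb1, which encodes the p105 precursor of p50 and lies at chr3:135584655-135691547, had 291, 278 and 319.9 CPM in the AML libraries, against 187, 174 and 164 CPM in those of normal lung. The 3 AML libraries were close together and above all normal ones (log2 change 0.76, DESeq2 adjusted p = 0.0449; without AML lung replicate 3 0.70, edgeR adjusted p = 0.0709; by the rule 0.66, SE 0.15, edgeR adjusted p = 0.0203).

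Traf1, an NF-kB-induced adaptor of TNF receptors, had, by the rule, 121, 122 and 67.8 CPM in the AML libraries, against 22.7, 23.2 and 19.8 CPM in those of normal lung and, in the restricted cells, 26.04, 57.3 and 45.9 CPM in the AML libraries, against 13.7, 8.21 and 10.3 CPM in those of normal lung. It was higher without overlap in both sets (log2 change 2.23, SE 0.26, edgeR adjusted p = 0.00499; restricted 1.98, DESeq2 adjusted p = 0.00759; without AML lung replicate 3 1.94, edgeR adjusted p = 0.0502). Ikbke, a kinase that activates IRF3 and NF-kB, was rare, with, in the restricted cells, 14.6, 14.5 and 18.3 CPM in the AML libraries, against 0.981, 1.64 and 1.88 CPM in those of normal lung (log2 change 3.43, DESeq2 adjusted p = 0.00519; without AML lung replicate 3 3.28, edgeR adjusted p = 0.0367). Its values by the rule were higher, with 109, 42.9 and 35.4 CPM in the AML libraries, against 4.26, 5.09 and 4.47 CPM in those of normal lung. Tank, which regulates the kinases TBK1 and IKBKE, had, in the restricted cells, 176, 197 and 156 CPM in the AML libraries, against 75.1, 79.7 and 87.3 CPM in those of normal lung and rose (log2 change 1.13, DESeq2 adjusted p = 0.00387; without AML lung replicate 3 1.22, edgeR adjusted p = 0.0209).

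Sod2, the mitochondrial superoxide dismutase and an NF-kB target, had, in the restricted cells, 87.5, 78.3 and 75.3 CPM in the AML libraries, against 43.7, 32.03 and 29.1 CPM in those of normal lung. Its AML libraries agreed closely and lay above the normal ones (log2 change 1.19, DESeq2 adjusted p = 0.0279; without AML lung replicate 3 1.22, edgeR adjusted p = 0.044). Of the survival and apoptosis genes, 6 of 23 rose by the rule (Bax, Bcl2, Bcl2a1a, Bcl2a1b, Bcl2a1d and Casp8), against 11.8% of all genes. Of the same 23, 1 fell (Bid, a pro-death member), against 10.8% of all genes. Bcl2a1d, one of several nearly identical mouse copies of the anti-death gene A1 between which reads may be split, had, in the restricted cells, 57.3, 37 and 80.05 CPM in the AML libraries, against 19.6, 19.7 and 23.5 CPM in those of normal lung (log2 change 1.49, DESeq2 adjusted p = 0.0279). Bcl2a1a had 50, 39.2 and 52.99 CPM in the AML libraries, against 19.6, 18.9 and 15.02 CPM in those of normal lung (log2 change 1.40, DESeq2 adjusted p = 0.0247). Without AML lung replicate 3 neither copy passed edgeR's threshold (adjusted p = 0.0833 and 0.0524).

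**Figure D4:**
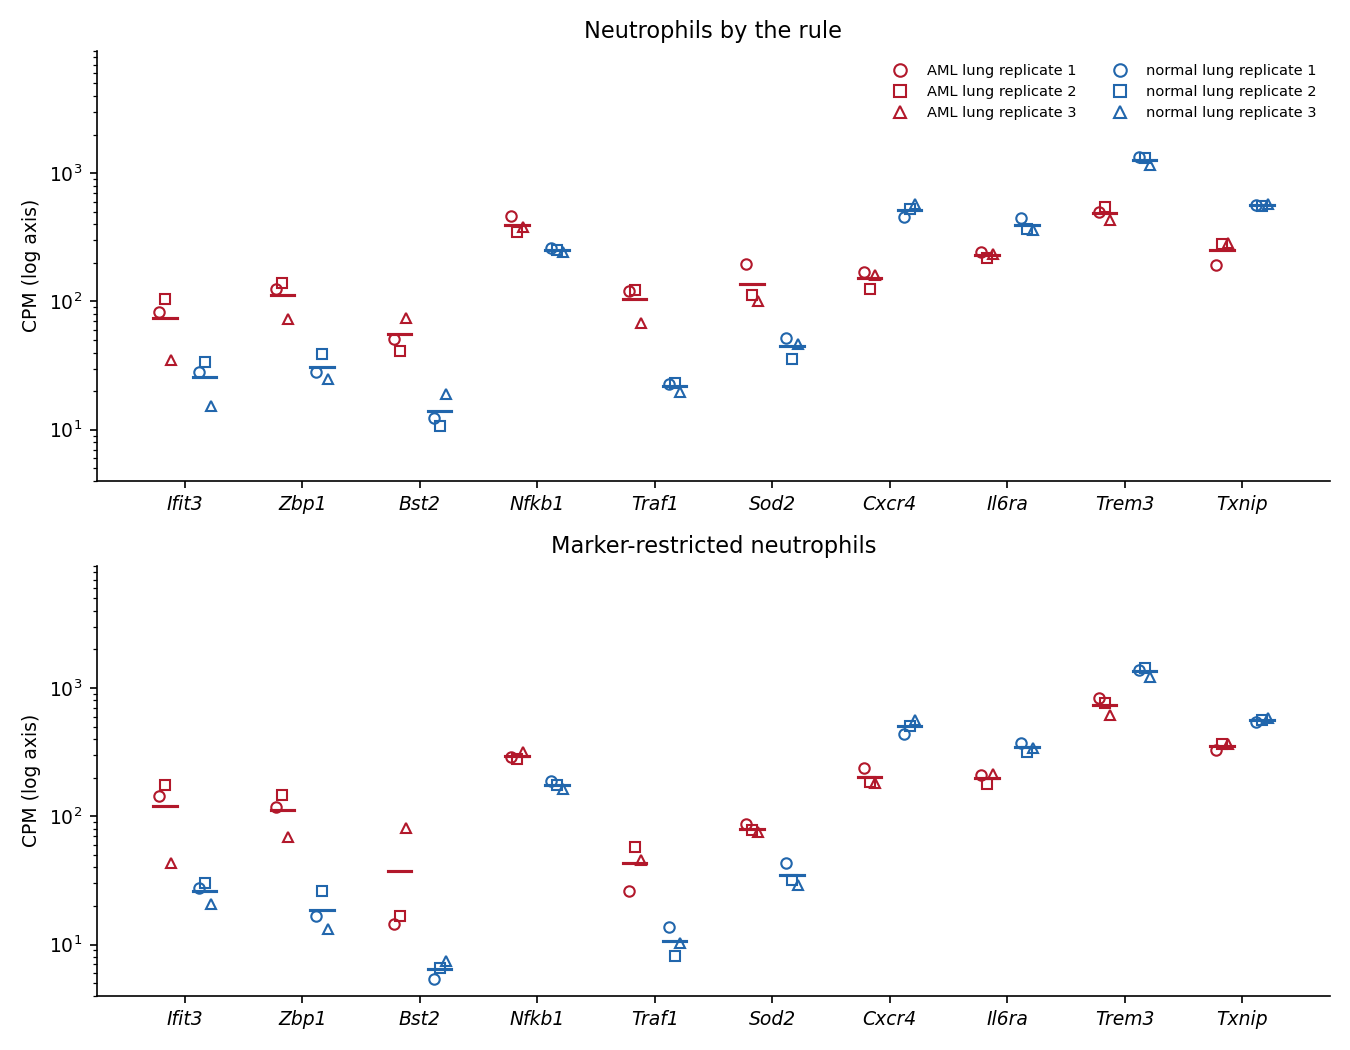
Level of 10 genes per library in CPM on a log axis, above for the neutrophils by the rule and below for the marker-restricted neutrophils, with bars for means (red, AML lung, to the left of blue, normal lung). Ifit3, Zbp1, Bst2, Nfkb1, Traf1 and Sod2 were higher and Cxcr4, Il6ra, Trem3 and Txnip lower in every AML library, in both sets.

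Among receptors, Cxcr4, at chr1:128588199-128592293 (mm10), fell in both sets. It had, by the rule, 168, 126 and 160.2 CPM in the AML libraries, against 457, 527 and 571 CPM in those of normal lung and, in the restricted cells, 239.6, 186 and 184 CPM in the AML libraries, against 442, 507 and 561 CPM in those of normal lung. In both sets the AML libraries lay far below the normal ones (log2 change -1.77, SE 0.17, edgeR adjusted p = 0.00384; restricted -1.31, DESeq2 adjusted p = 6.76e-05; without AML lung replicate 3 -1.24, edgeR adjusted p = 0.029). No other chemoattractant receptor went with it in the restricted cells except C5ar2, the second receptor of complement C5a, with 57.3, 44.98 and 36.6 CPM in the AML libraries, against 89.3, 89.5 and 106 CPM in those of normal lung (log2 change -1.05, DESeq2 adjusted p = 0.0479; without AML lung replicate 3 -0.89, edgeR adjusted p = 0.0781). By the rule 5 of 14 measured chemoattractant receptors fell (C5ar1, C5ar2, Cxcr1, Cxcr4 and Ptafr), against 10.8% of all genes, and none rose. In the restricted cells the list's median was 0.01 over 12 genes, and C5ar1 had 1219, 966 and 593 CPM in the AML libraries, against 946, 1262 and 1143 CPM in those of normal lung, with overlap.

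Il6ra, the interleukin 6 receptor, had, in the restricted cells, 210.4, 178 and 212 CPM in the AML libraries, against 373, 317 and 344 CPM in those of normal lung and fell in both sets (by the rule -0.76, edgeR adjusted p = 0.0112; restricted -0.78, DESeq2 adjusted p = 0.0323; without AML lung replicate 3 -0.82, edgeR adjusted p = 0.0588). Trem3, an activating receptor that signals through DAP12, had, in the restricted cells, 839.6, 768 and 613 CPM in the AML libraries, against 1380.5, 1441 and 1223 CPM in those of normal lung and fell too (by the rule -1.37, edgeR adjusted p = 0.00499; restricted -0.87, DESeq2 adjusted p = 0.0219; without AML lung replicate 3 -0.74, edgeR adjusted p = 0.0543). Cd14, the co-receptor for endotoxin, rose in the restricted cells, with 1065, 1214 and 435 CPM in the AML libraries, against 351, 392 and 347 CPM in those of normal lung (log2 change 1.31, DESeq2 adjusted p = 0.0352; without AML lung replicate 3 1.65, edgeR adjusted p = 0.00473), and among the neutrophils by the rule its groups overlapped. Mrgpra2b, a Mas-related receptor, had 423, 313 and 175 CPM in the AML libraries, against 77.5, 117 and 162 CPM in those of normal lung (log2 change 1.35, DESeq2 adjusted p = 0.0462; without AML lung replicate 3 1.65, edgeR adjusted p = 0.0355). Cd274, or PD-L1, had, in the restricted cells, 269, 268 and 122 CPM in the AML libraries, against 139.8, 157 and 133 CPM in those of normal lung, where replicate 3 again lay below the other AML libraries and below the normal ones. Cd274 did not pass with all libraries (DESeq2 adjusted p = 0.513) and rose without AML lung replicate 3 (log2 change 0.91, edgeR adjusted p = 0.0374).

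The 12 largest decreases by the rule included Elmsan1, Arrdc3, Ell2 and Usp38. Elmsan1, a subunit of a histone deacetylase complex, had in the restricted cells 362, 100.1 and 256 CPM in the AML libraries, against 699, 930.4 and 634 CPM in those of normal lung (log2 change -1.66, DESeq2 adjusted p = 0.0103; without AML lung replicate 3 -1.72, edgeR adjusted p = 0.113). Arrdc3, an arrestin-like adaptor, had 93.8, 36.3 and 63.4 CPM in the AML libraries, against 213, 179 and 206 CPM in those of normal lung (log2 change -1.64, DESeq2 adjusted p = 0.00187; without AML lung replicate 3 -1.65, edgeR adjusted p = 0.0543). Txnip, which is not among these 12 and is the thioredoxin inhibitor and a relative of Arrdc3 that limits glucose uptake, had 327, 365 and 364 CPM in the AML libraries, against 539, 562 and 585 CPM in those of normal lung (log2 change -0.67, DESeq2 adjusted p = 0.0479; without AML lung replicate 3 -0.69, edgeR adjusted p = 0.0751). Ell2, an elongation factor of RNA polymerase II, had 1028, 598 and 628 CPM in the AML libraries, against 1629, 2018 and 1571 CPM in those of normal lung (log2 change -1.21, DESeq2 adjusted p = 0.0056; without AML lung replicate 3 -1.09, edgeR adjusted p = 0.0666). Usp38, a deubiquitinase, had 209, 165 and 138 CPM in the AML libraries, against 371, 378 and 371 CPM in those of normal lung (log2 change -1.13, DESeq2 adjusted p = 0.00292; without AML lung replicate 3 -0.99, edgeR adjusted p = 0.0367), and Zfand4, Fbxo31, Prkar2b and Dhx40 fell in the same test. Without AML lung replicate 3 the edgeR adjusted p was 0.0502 for Zfand4, 0.0499 for Fbxo31, 0.0492 for Prkar2b and 0.101 for Dhx40. All 12 of the largest decreases kept every AML library below every normal one in the restricted cells, against 10.8% of all genes. They were chosen for lying below without overlap by the rule. The restricted cells are part of those same cells, so this is no independent support.

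The largest increases by the rule included several genes known from monocytes. Pecam1, an adhesion molecule of endothelium and monocytes, had, by the rule, 522, 359.5 and 397 CPM in the AML libraries, against 58.97, 63.3 and 79.2 CPM in those of normal lung (2.67 on the log2 scale, SE 0.20, edgeR adjusted p = 0.00266). The restricted cells had 16.7, 81.98 and 209 CPM in the AML libraries, against 12.8, 23.8 and 34.7 CPM in those of normal lung, with overlap. Ms4a6d, Ms4a4a, Cd300e, Tnip3, Gstp1, Sh2d1b1 and Arl5c, among the 12 largest increases by the rule, were too low in the restricted cells to be tested. Il10, the anti-inflammatory cytokine, and Spic, a transcription factor of iron-recycling macrophages, likewise rose by the rule and were too low in the restricted cells, where monocyte markers had been limited. Il10 had, by the rule, 75.9, 17.9 and 14.6 CPM in the AML libraries, against 0.355, 0 and 0 CPM in those of normal lung, and Spic had 39.6, 28.7 and 14.2 CPM in the AML libraries, against 0.711, 0 and 0 CPM in those of normal lung. S100a4 had, in the restricted cells, 14.6, 25.4 and 189 CPM in the AML libraries, against 4.91, 3.29 and 11.3 CPM in those of normal lung, with the high value in AML lung replicate 3. Its log2 change there was 3.64 with all libraries (DESeq2 adjusted p = 0.00406) and 1.70 without AML lung replicate 3 (edgeR adjusted p = 0.15).

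Genes of classic neutrophil effector functions gave mixed results. S100a8 had, by the rule, 17321, 21524 and 9834 CPM in the AML libraries, against 28924, 27752 and 20033 CPM in those of normal lung, with overlap (log2 change -0.66, edgeR adjusted p = 0.156); the restricted cells were chosen by this gene and S100a9 and are not read for them. Il1b, which encodes the main interleukin 1 of neutrophils, had, in the restricted cells, 15756, 13584 and 4944 CPM in the AML libraries, against 8482, 9804 and 11077 CPM in those of normal lung. AML replicates 1 and 2 were above and replicate 3 below all normal libraries. Secondary and tertiary granule genes gave 1 higher and 4 lower calls among 18 by the rule, against 11.8% and 10.8% of all genes. In the restricted cells 4 of 18 stood above, against 8.53%, and none below, with Lcn2, the iron-binding neutrophil lipocalin, at 1153, 675 and 831 CPM in the AML libraries, against 558, 632 and 396 CPM in those of normal lung. Mmp9, the gelatinase of tertiary granules, fell by the rule (log2 change -1.25, edgeR adjusted p = 0.0193) and had, in the restricted cells, 728, 722 and 339 CPM in the AML libraries, against 954, 829 and 699.6 CPM in those of normal lung, with overlap.

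Genes of the oxidative burst were mixed. Cybb, which encodes the catalytic subunit gp91phox, rose by the rule with 850.1, 439.6 and 599 CPM in the AML libraries, against 260.4, 238 and 226 CPM in those of normal lung, but in the restricted cells it had 64.6, 45.7 and 388 CPM in the AML libraries, against 35.3, 31.2 and 46.95 CPM in those of normal lung, where the high value was again that of AML lung replicate 3. Of 20 genes of this list 5 rose and 2 fell by the rule, against 11.8% and 10.8% of all genes, and in the restricted cells 3 of 17 stood above and 1 below, against 8.53% and 10.8%. Fth1, the ferritin heavy chain that stores iron, had 6247, 6069 and 3860.2 CPM in the AML libraries, against 2597, 3134 and 2801 CPM in those of normal lung (log2 change 0.92, DESeq2 adjusted p = 0.0416; without AML lung replicate 3 1.12, edgeR adjusted p = 0.00841).

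Some antigen-processing and respiratory genes were higher by the rule. Of 21 genes of MHC class I and the immunoproteasome 5 rose (H2-M3, Psmb10, Psmb8, Psme1 and Psme2), against 11.8% of all genes, and none fell, and in the restricted cells 4 of 19 stood above, against 8.53%, and none below, with a median log2 change of 0.66. Psme1, a proteasome activator induced by interferon gamma, had here 136, 116 and 173 CPM in the AML libraries, against 68.2, 82.9 and 92.03 CPM in those of normal lung, without overlap (log2 change 0.82, DESeq2 adjusted p = 0.142; without AML lung replicate 3 0.65, edgeR adjusted p = 0.148). Of 37 nuclear genes of oxidative phosphorylation 13 rose by the rule, against 11.8% of all genes, and none fell, and in the restricted cells 7 stood above, against 8.53%, and none below, with a median of 0.27. Cox5a, a subunit of cytochrome c oxidase, had here 77.1, 71.1 and 130.2 CPM in the AML libraries, against 51.02, 57.5 and 60.1 CPM in those of normal lung and did not pass (DESeq2 adjusted p = 0.338; without AML lung replicate 3 0.41, edgeR adjusted p = 0.343). Of 20 glycolysis genes 1 rose and 4 fell by the rule, against 11.8% and 10.8% of all genes. The 4 were Hk2, Hk3, Pfkfb3 and Pfkfb4, all of the early steps or their control. In the restricted cells these 4 of 19 lay below without overlap, against 10.8% of all genes, and 2 lay above (Ldha and Pfkl), against 8.53%.

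Several list medians moved towards 0 or past it in the restricted cells. The calls of these lists by the rule stand against 11.8% of all genes higher and 10.8% lower. Heat shock and immediate early genes gave 9 lower and 2 higher calls among 25 by the rule, with a median of -0.30, but a median of 0.07 over 21 restricted genes. Dusp1, the phosphatase of p38 and JNK, had, in the restricted cells, 5322, 3298 and 3103 CPM in the AML libraries, against 6555, 6659.8 and 6451 CPM in those of normal lung, still below without overlap. Its log2 change there without AML lung replicate 3 was -0.60 (edgeR adjusted p = 0.152). Transcription factors gave 12 lower and 5 higher calls among 42, with a median of -0.19 by the rule and 0.13 in the restricted cells. The neutrophil identity list gave 5 lower and no higher calls among 19 by the rule (Cxcr1, Mmp8, Mmp9, Slpi and Trem3), with a median of -0.62, and a median of 0.05 in the restricted cells, which S100a8 and S100a9 of this list helped choose. Eicosanoid genes gave 2 higher and 4 lower calls among 14, and Ptgs2, or COX-2, had, in the restricted cells, 1191, 1119 and 332 CPM in the AML libraries, against 1557, 1541 and 1621 CPM in those of normal lung, below without overlap. The log2 change of Ptgs2 there without AML lung replicate 3 was -0.44 (edgeR adjusted p = 0.153). Erythroid genes had overlapping groups, with summed levels of 1.95, 1.04 and 2262 CPM in the AML libraries, against 1.27, 20991 and 12944 CPM in those of normal lung.

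**Figure D5:**
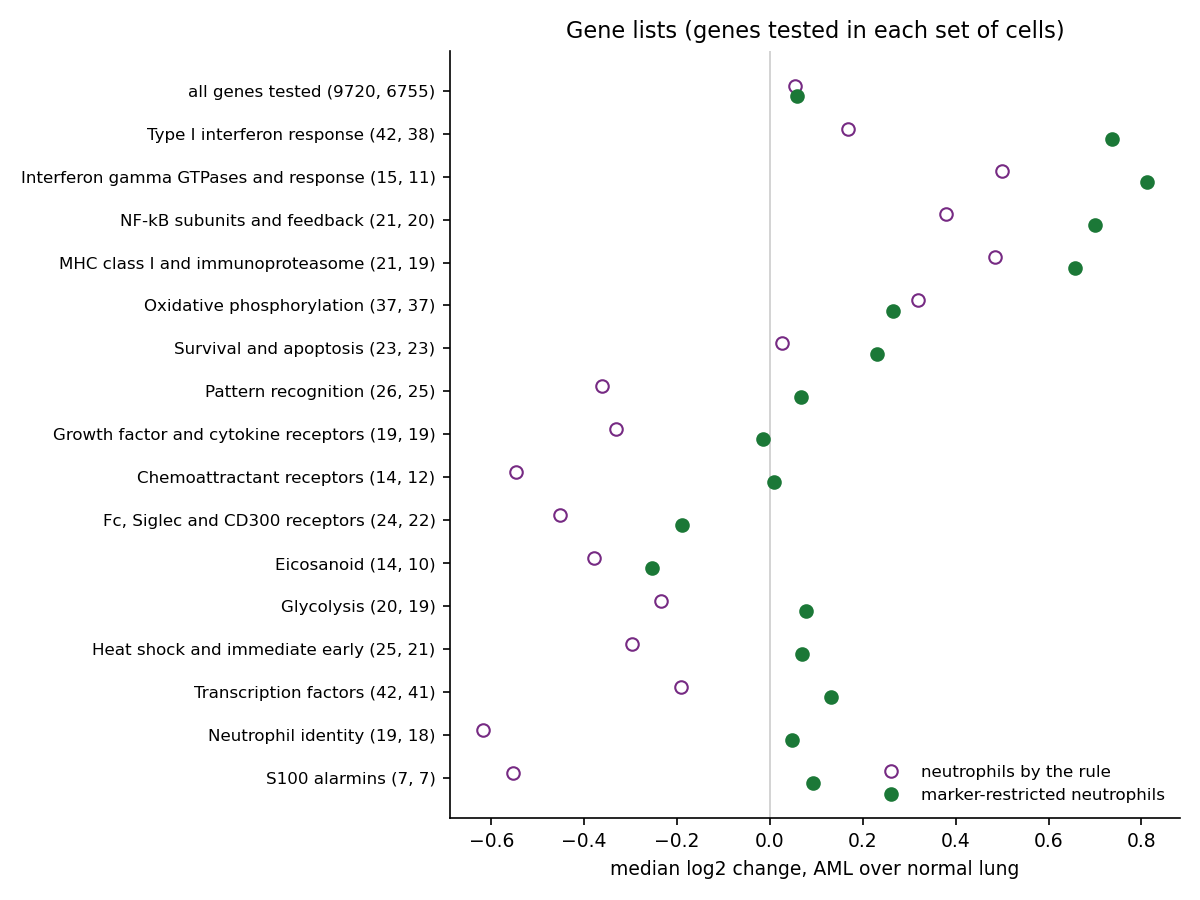
Median log2 change, AML over normal lung, of the genes of each list in the neutrophils by the rule (open) and in the marker-restricted neutrophils (filled), with the number of genes tested in each set in brackets. Of the lists drawn, both interferon lists, NF-kB and MHC class I lay furthest to the right in the restricted cells. The identity, alarmin, transcription factor, heat shock, pattern recognition, glycolysis and chemoattractant receptor lists moved from below 0 to above 0, the last of them barely. The identity and alarmin lists hold S100a8 and S100a9, which helped choose the restricted cells.

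The change in AML lung was set against that of other leukocytes of the same libraries, in one model per pair. Taken alone, 3.07% of genes passed in classical monocytes and 3.1% in nonclassical monocytes. The difference between neutrophils by the rule and classical monocytes passed for 1340 of 11091 genes (12.1%), and that against nonclassical monocytes for 1879 of 10936 (17.2%). Leaving out normal lung replicate 1 gave counts of 240 and 759, leaving out normal lung replicate 2 gave 336 and 866, and leaving out AML lung replicate 1 gave 809 and 1015. Without normal lung replicate 3 the count against classical monocytes was 514. Against B cells no gene of 11611 passed edgeR's threshold (0%) and 2562 had an unadjusted p under 0.05. Zbp1 rose more in neutrophils than in classical monocytes by 1.64 on the log2 scale (adjusted p = 0.00319) and than in nonclassical monocytes by 1.45 (adjusted p = 0.00333). Ifit3 rose more than in classical monocytes by 1.88 (adjusted p = 0.00782), and against nonclassical monocytes the difference was -0.38 (adjusted p = 0.628). For Cxcr4 the differences were -0.19 and 0.12 (adjusted p = 0.79 and 0.861), so its decrease was not shown to differ from that in either monocyte class. For the restricted neutrophils no gene passed against any class (0%), with 992, 1039 and 813 genes at an unadjusted p under 0.05 against classical monocytes, nonclassical monocytes and B cells.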

How the data were processed

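The authors deposited raw UMI counts of genes in barcodes, from 10x Genomics 3' chemistry v3.1, made with Cell Ranger 7.0.0 on mm10, per the submitters' processing notes. The sources used here do not say how barcodes were chosen. The members and lists were chosen with earlier results of these data known. Counts were summed per library and tested with edgeR 4.0.16 (TMM, filterByExpr, quasi-likelihood test, Benjamini-Hochberg at 0.05) in R 4.3.3, after tests on simulated data; DESeq2 1.42.0 was an alternative. CPM of tested genes use TMM-scaled totals, and those of rule genes, S100a8 in the label check and marker sums use plain totals. Named genes are the 12 largest increases and decreases among called genes whose libraries do not overlap and whose mean log2 CPM is 5 or more, and the 30 called list members with the lowest p; all others were chosen after their values were seen. Doublets, called with Scrublet in scanpy 1.11.5, were kept. Shares were compared by exact permutation. Same-numbered replicates are not stated to be paired. A comparison among the neutrophils and the results of some genes are not reported here.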

Additional observations from a re-analysis of the deposited data

Results flagged for a closer look

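For 19 named genes whose AML and normal libraries did not overlap in the restricted cells, the AML change of the neutrophils by the rule differed from that of both monocyte classes, by the test of the difference itself in edgeR. On the log2 scale, neutrophils minus nonclassical monocytes, the difference was above 0 for Bst2 (1.43), Ifitm3 (1.08), Nfkb1 (0.65), Pou2f2 (1.51), S100a4 (2.11), Tank (0.56), Traf1 (1.22) and Zbp1 (1.45). It was below 0 for Bnip3 (-2.50), C5ar2 (-1.20), Dhx40 (-1.03), Elmsan1 (-1.58), Fbxo31 (-1.41), Lgals9 (-1.02), Pfkfb4 (-0.55), Prkar2b (-2.84), Trem3 (-1.49), Usp38 (-1.37) and Zfand4 (-1.83). With the restricted neutrophils none of these differences passed. All 19 kept their direction, but the genes were chosen by these differences, and the restricted cells are part of the same neutrophils. The kept direction is therefore no independent support. In the restricted cells 6 differences were larger than by the rule: Zbp1 was 2.03, Ifitm3 1.22, Bst2 1.51, S100a4 2.83, Pou2f2 1.90 and Tank 0.59. Pou2f2 and S100a4 are among the genes whose level in the restricted cells was highest in AML lung replicate 3, with 21.9, 47.2 and 253 CPM in the AML libraries, against 13.2, 13.1 and 20.7 CPM in those of normal lung for Pou2f2. The monocyte RNA in the neutrophils by the rule moves with the groups, and its part in these differences was not tested.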

How the results depend on the processing

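The count of genes called between AML and normal neutrophils, 2196, stayed within 1.5 times with RLE size factors, DESeq2, no filter, cells without granule UMIs, no doublets and equal cell numbers. It was 10 with 4 or more of the 7 genes, 1 without monocyte or macrophage markers, 144 after thinning to 500 UMIs and, in the restricted neutrophils, 0, 95 with DESeq2, 0 with RLE and 7 with the replicate block. Leaving out 1 library gave 504 to 1935, and 0 to 95 in the restricted cells. The fit with the replicate number as a block gave 2617. Same-numbered libraries deviated together with r = 0.455, -0.236 and 0.575, so the numbers are not taken to pair the samples. AML lung replicate 2 correlated best with normal lung replicate 1 (r = 0.317). Depth fell with the replicate number in both groups. Kept barcodes had a median of 9589, 4040.5 and 1068 UMIs in the AML libraries, against 10757, 6428 and 2811 UMIs in those of normal lung. The part of depth in these correlations was not tested. The block changed no other count by over 1.5 times except the difference from B cells and that in the restricted cells.

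The difference in the share of neutrophils, 1.08 points, was -0.212 after thinning, -1.06 with 4 or more genes, -0.963 without monocyte markers and -1.29 in the restricted cells, and -1.98 to 3.49 without 1 library, below 0 without AML lung replicate 3 (-1.98) or normal lung replicate 3 (-0.571). The interferon-high difference was -0.6575 without thinning and 9.62 to 16.9 without 1 library. The difference from classical monocytes was 2220 genes with no filter and 240 to 1337 without 1 library, and that from nonclassical monocytes was 759 to 1802. For B cells the count was 663 with no filter, 293 with the replicate block and 0 to 85 without 1 library. With the restricted neutrophils both monocyte counts were 0. Without monocyte markers, in the restricted cells and there with DESeq2, negative values turned positive for Il1b, log2 change (0.21, 0.22 and 0.23), S100a8, log2 change (0.0787, 0.0928 and 0.0953), and S100a9, log2 change (0.0214, 0.0301 and 0.03214). S100a8 and S100a9 helped choose the restricted cells, so their values there are not read as a result. The cause of the other changes of sign was not tested. Depth limits the restricted cells most in AML lung replicate 3, at a median of 929.5 UMIs.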
